A study of Mus musculus with 6 samples.

Results

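Glycine and D-serine signalling was described through 10 genes, taken by symbol from the 38087 genes of a brain RNA-seq comparison of wild-type (WT) and Sgo1-/+ mice. They are the glycine transporters Slc6a5 and Slc6a9, the glycine receptor subunits Glra1, Glra2, Glra3 and Glrb, the D-serine genes Srr, Slc7a10 and Dao, and the glycine cleavage gene Gldc. Slc6a5 and Dao were chosen by their expression difference between these same WT and Sgo1-/+ libraries, being in the study's own gene table, so that difference is given here as a description with no test. The other 8 genes were added by function. All mice were C57BL6 and 24 months old, 3 WT and 3 Sgo1-/+, each giving 1 library from frozen cerebrum with cortex and hippocampus, from which olfactory bulb, cerebellum and medulla had been left out. Sgo1-/+ mice are haploinsufficient for Sgo1 (Shugoshin-1), which protects chromosome cohesion in mitosis. WT replicate 1 and Sgo1-/+ replicate 2 were male and the other 4 mice female. Run 258 held every WT library and run 259 every Sgo1-/+ one, and run and genotype cannot be told apart.

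Glycine is a fast inhibitory transmitter of the spinal cord, brain stem and cerebellum. Glycinergic terminals reload it through GlyT2, the product of Slc6a5, while GlyT1, the product of Slc6a9, clears it mainly into glia. Glycine receptors are pentamers of alpha subunits (Glra1 in the adult hindbrain, Glra2 and Glra3 more widely) and the beta subunit Glrb, which anchors them to the scaffold gephyrin. Glycine and D-serine are also co-agonists of the NMDA receptor. Serine racemase (Srr) makes D-serine, the transporter Asc-1 (Slc7a10) exchanges it with glycine, D-amino acid oxidase (Dao) degrades it, and glycine decarboxylase (Gldc) breaks glycine down in mitochondria. In rodents, Dao is found chiefly in astroglia of the cerebellum and brain stem, whereas Srr is strongest in the forebrain.

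The promoters of 4 members are printed because 1 library, WT replicate 1, lay far above the others for Slc6a5 and Dao and below all others for Srr and Gldc, as described further on. Each is the 250 bases before a RefSeq start site on GRCm38.p6, 5′ to 3′ on the gene's strand. The RefSeq start nearest to the deposited gene start was taken. It lay 153 bases downstream of that start for Slc6a5, 32 downstream for Dao, 23 upstream for Gldc and 0 away for Srr. The last 153 bases of the Slc6a5 window and the last 32 of the Dao window thus lie inside the deposited genes. Slc6a5 is read from the plus strand (chr7:49910049-49910298), Dao from the plus strand (chr5:114003485-114003734), Srr from the minus strand (chr11:74925949-74926198) and Gldc from the minus strand (chr19:30175442-30175691). Capitals mark matches, on either strand, to the GC box GGGCGG, the CCAAT box CCAAT, the TATA box TATAAA, the E-box CACGTG and the core TGACG of the cAMP response element.
Slc6a5: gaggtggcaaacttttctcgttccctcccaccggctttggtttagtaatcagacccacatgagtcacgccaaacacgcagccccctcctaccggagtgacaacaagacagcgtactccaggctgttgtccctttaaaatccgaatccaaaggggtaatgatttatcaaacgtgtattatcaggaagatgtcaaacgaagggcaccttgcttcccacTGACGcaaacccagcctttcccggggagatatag
Dao: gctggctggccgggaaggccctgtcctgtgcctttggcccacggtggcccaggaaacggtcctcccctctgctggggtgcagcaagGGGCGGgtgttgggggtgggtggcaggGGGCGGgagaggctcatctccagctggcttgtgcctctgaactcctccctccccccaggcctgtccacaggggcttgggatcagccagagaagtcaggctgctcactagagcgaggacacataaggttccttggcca
Srr: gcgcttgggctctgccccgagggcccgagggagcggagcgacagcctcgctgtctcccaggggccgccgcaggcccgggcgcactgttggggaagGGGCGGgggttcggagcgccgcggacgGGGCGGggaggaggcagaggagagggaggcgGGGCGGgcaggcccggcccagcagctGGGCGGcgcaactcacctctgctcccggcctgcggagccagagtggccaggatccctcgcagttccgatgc
Gldc: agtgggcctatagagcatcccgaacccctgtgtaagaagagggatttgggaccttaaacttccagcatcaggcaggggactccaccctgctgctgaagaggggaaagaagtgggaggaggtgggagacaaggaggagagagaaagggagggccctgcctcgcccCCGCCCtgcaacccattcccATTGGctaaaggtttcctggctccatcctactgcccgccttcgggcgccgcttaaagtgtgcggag

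The Srr window held 4 GC boxes and 26 CpG dinucleotides, against a median of 6 CpG over the 32851 windows of the same length. The Dao window held 2 GC boxes and 6 CpG. The Gldc window held 1 GC box and 1 CCAAT box, both read from the opposite strand, with 8 CpG. The Slc6a5 window had 11 CpG and a single match, the core TGACG. Its first base lay 34 bases before the RefSeq start site and inside the deposited gene. Of all windows, 32.7% held the GC box, 33.8% the CCAAT box, 17.8% the core TGACG, 12.4% the TATA box and 6.02% the E-box, and neither of the last-named motifs was matched in the 4 windows. Windows were found for 9 of the 10 genes, all but Glra1. These matches describe the letters of the windows and say nothing of factor binding.

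Before the genes themselves, the libraries were checked against the labelled tissue. Their depth was even, from 11123917 to 12505561 estimated counts. WT replicate 1 stood apart from the other 5 libraries. Tbr1, a transcription factor of cortical projection neurons, had 48.7 normalized counts there and 913 to 1359 in the other 5. A normalized count is the estimated count divided by the TMM-scaled size of its library and brought to the mean size of the 6. The summed level of 7 cerebral neuron genes was 263 CPM (counts scaled to library size) in WT replicate 1 and 1082 to 1316 in the other libraries. Of the 7, 6 were at least 4-fold below the median of the other 5, beside 2.75% of all tested genes. The 16 Hox genes, listed for the hindbrain, summed to 153 CPM in WT replicate 1 and to 0.462 to 1.55 CPM elsewhere. Of these, 15 had at most 3 estimated counts in each of the other 5 libraries. The list includes Hoxa7, Hoxb7 and Hoxb8, so its sum cannot tell hindbrain from spinal cord. The 9 genes of cerebellar granule cells summed to 1503 CPM against 46.3 to 126 CPM. The 7 of Purkinje cells summed to 2834 CPM against 952 to 1221 CPM. At least 4-fold above the median of the other 5 were all 9 granule cell genes and 5 Purkinje cell genes. The share over all tested genes was 0.973%. Itpr1, the most abundant of the Purkinje cell list, was 1.59 times that median. Pcp2 and Ppp1r17 of the same list are in the study's own gene table. For 6 genes of brain stem neurons the sum was 23.3 CPM against 2.33 to 4.54 CPM. Of these 6, 3 were at least 4-fold above that median, and Phox2a lay within the range of the other 5. The library labelled WT replicate 1 lacked most of the forebrain signal of its labelled tissue and carried that of the Hox, brain stem and cerebellar lists. The 8 astrocyte genes summed to 5810 CPM there and 4539 to 5168 CPM in the others, but moved unequally. The water channel Aqp4 was 3.29 times the median of the other 5, S100b 3.11 times and Aldoc 2.18 times, while the glutamate transporter Slc1a2 was 0.523 times that median. Of the 8, 6 were above all other libraries, beside 28.1% of all tested genes. The 5 olfactory bulb genes, of a tissue left out at dissection, also differed between the remaining libraries, with 123 to 150.5 CPM in WT replicates 2 and 3 and 8.57 to 65.99 CPM in Sgo1-/+. In the fit that leaves out WT replicate 1, these 5 genes had a median log2 difference of −2.43. None overlapped between the groups, beside 18% of all genes tested there that did not. The differences between the genotypes are therefore given with and without WT replicate 1. The targeted gene Sgo1 (listed as Sgol1) was nearly undetected, its highest estimated count being 7, and could not check the genotype.

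**Figure D1:**
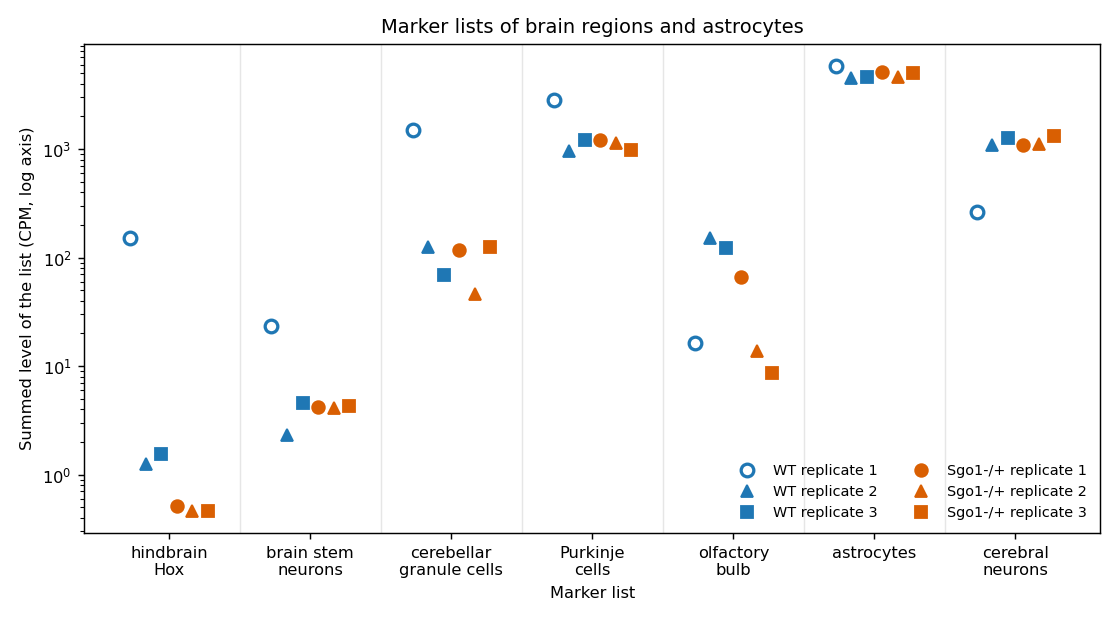
Summed level of 7 marker lists in each library (CPM, log axis). Blue symbols are WT and orange symbols Sgo1-/+, and the open circle is WT replicate 1. It sits at 153 CPM for the Hox genes (labelled hindbrain Hox) and 263 CPM for the cerebral neuron genes.

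Slc6a5 (ENSMUSG00000039728, chromosome 7 of mm10, 49910146 to 49963856, plus strand) encodes the neuronal glycine transporter GlyT2. Slc6a5 reached 2653 normalized counts in WT replicate 1, against 5.71 in WT replicate 2 and 40.6 in WT replicate 3. The Sgo1-/+ libraries, by replicate number, held 9.93, 1.01 and 13.3. One WT library was high, and the other two WT libraries overlapped with the Sgo1-/+ libraries. Fitted to all libraries, Sgo1-/+ differed from WT by −6.78 on the log2 scale (SE 2.30). Fitted to the 5 libraries other than WT replicate 1, the difference was −1.50 (SE 0.956). The lowest count was in Sgo1-/+ replicate 2, which like WT replicate 1 came from a male.

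Slc6a9 (ENSMUSG00000028542, chromosome 4, 117834506 to 117875198, plus strand) encodes the glial transporter GlyT1. By replicate number, the WT libraries held 1246, 420.4 and 508 normalized counts of Slc6a9, and the Sgo1-/+ libraries 403, 491 and 673. WT replicate 1 was again the highest library, 2.54 times the median of the other 5, and the rest of the WT range lay within that of Sgo1-/+. The astrocyte genes Aqp4 and S100b were high in the same library, and their part in the result was not tested. The difference of Sgo1-/+ from WT was −0.47 on the log2 scale (SE 0.425, unadjusted p = 0.304 by edgeR's quasi-likelihood test), and 0.17 (SE 0.216) once WT replicate 1 was left out. Exons of Ccdc24 on the opposite strand cover 1429 of the 5141 exonic bases of Slc6a9. The TruSeq V2 kit named in the labels does not mark strand. Ccdc24 in WT replicate 1 was 3.11 times the median of the other 5, so part of the Slc6a9 counts is uncertain.

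Between the 2 transporters, the balance differed by library. Levels were compared between genes as TMM-scaled CPM per kilobase of exon. Slc6a5 made up 60.3% of the summed Slc6a5 and Slc6a9 level in WT replicate 1 (95% Wilson interval of the counts 58.7 to 61.9%). In the other 5 libraries its share was between 0.147% (0.0259 to 0.828%) in Sgo1-/+ replicate 2 and 5.39% (3.97 to 7.28%) in WT replicate 3. The summed level of both transporters was 50.6 per kilobase in WT replicate 1, and at least 6.61 and at most 11 in the other libraries. These intervals cover counting error only.

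Among the receptor genes, Glra1 (ENSMUSG00000000263, chromosome 11, 55514238 to 55608198, minus strand), the main alpha subunit of adult hindbrain and spinal receptors, was high in the same library as Slc6a5. In the same order, the normalized counts of Glra1 were 525, 15.0 and 10.2 (WT) and 7.65, 12.2 and 16.4 (Sgo1-/+). Outside WT replicate 1, the WT and Sgo1-/+ values were interleaved. Sgo1-/+ differed from WT by −3.90 on the log2 scale (SE 1.55, unadjusted p = 0.0403 by edgeR's quasi-likelihood test, Benjamini-Hochberg adjusted p = 0.9999). When WT replicate 1 was left out, the difference was −0.07 (SE 0.504, unadjusted p = 0.899 by the same edgeR test). WT replicate 1 held 95.4% of the WT sum of Glra1, 98.3% of that of Slc6a5 and 94.3% of that of Dao.

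Glra2 (ENSMUSG00000018589, X chromosome, 165129017 to 165327393, minus strand), the alpha subunit of immature and extrasynaptic receptors, showed no such library. Glra2 had 155, 239 and 181 normalized counts in the WT libraries, and 209, 275 and 112 in the Sgo1-/+ ones. WT replicate 1 lay within the range of the other 5, and both groups overlapped over most of their range. Glra2 differed by 0.05 on the log2 scale (SE 0.334), or −0.08 (SE 0.341) with WT replicate 1 left out. Glra3 (ENSMUSG00000038257, chromosome 8, 55940460 to 56125429, plus strand), a further alpha subunit, had 67.9, 72.2 and 41.0 normalized counts in WT and 40.5, 79.4 and 34.8 in Sgo1-/+. These libraries interleaved as well, at −0.22 on the log2 scale (SE 0.393) and −0.13 (SE 0.437) when WT replicate 1 was left out.

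Glrb (ENSMUSG00000028020, chromosome 3, 80843599 to 80913660, minus strand), the beta subunit shared by synaptic receptors, was the most abundant member per kilobase in every library. Normalized counts of Glrb were 3813, 2465 and 3730 in WT and 2922, 3321 and 3362 in Sgo1-/+. The libraries spanned a narrow range, with WT replicate 1 at its top end. The difference was −0.06 (SE 0.186) on the log2 scale, and 0.05 (SE 0.175) without WT replicate 1, both within the spread between libraries.

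The leading alpha subunit differed between the libraries, while Glrb in WT replicate 1 was 1.15 times the median of the other 5. Glra1 made up 81.6% (95% interval 78.7 to 84.1%) of the summed Glra1 and Glra2 level per kilobase in WT replicate 1. In the other 5 libraries the share of Glra1 was between 4.55% (2.42 to 9%) in Sgo1-/+ replicate 1 and 16.0% (10.2 to 24.2%) in Sgo1-/+ replicate 3, so Glra2 was the leading alpha subunit there. The ratio of Glrb to the 3 alpha subunits together, per kilobase, was 2.99 in WT replicate 1 and 5.88 to 15.7 in the others.

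**Figure D2:**
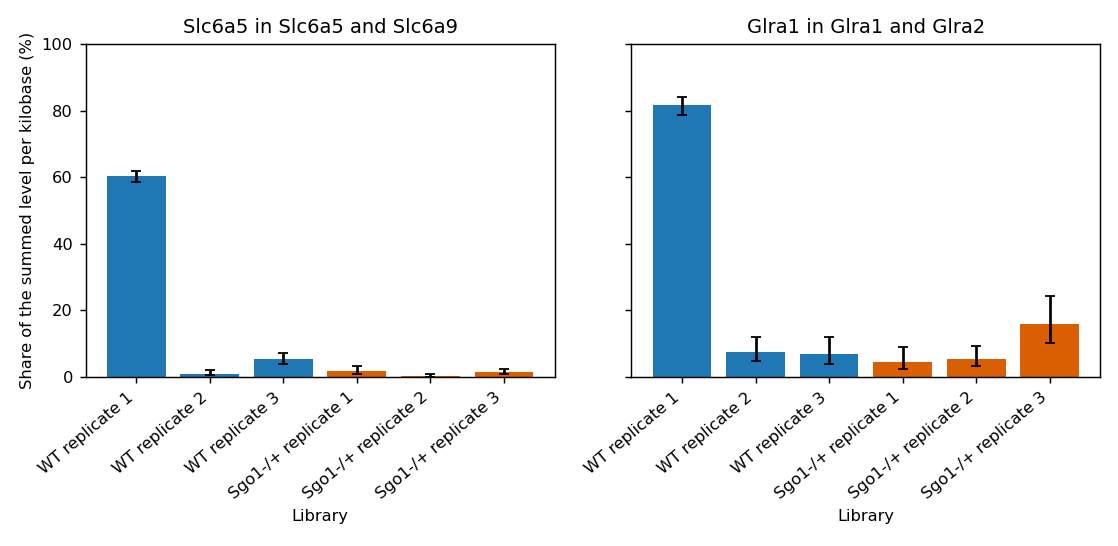
Share of Slc6a5 in the Slc6a5 and Slc6a9 level (left) and of Glra1 in the Glra1 and Glra2 level (right), in percent of the summed level per kilobase, by library. Bars are WT (blue) and Sgo1-/+ (orange) with 95% Wilson intervals of the counts, and WT replicate 1 stands at 60.3% and 81.6%.

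Srr (ENSMUSG00000001323, chromosome 11, 74906359 to 74925948, minus strand), the enzyme that makes D-serine, went the opposite way. Its lowest value was 475 normalized counts in WT replicate 1, beside 1085 and 1409.5 in the other WT libraries. Sgo1-/+ libraries held 1201, 1234 and 1077. WT replicate 1 was the lowest library, with the median of the other 5 at 2.53 times its count, and those 5 lay close together, with a highest to lowest ratio of 1.31. The genotypes differed by 0.24 on the log2 scale (SE 0.354), or −0.09 (SE 0.134) with WT replicate 1 left out. Exons of Tsr1 on the opposite strand cover 1240 of the 4560 exonic bases of Srr. Tsr1 was also lowest in WT replicate 1, at 0.793 times the median of the other 5. Its part in the Srr counts was not tested.

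Slc7a10 (ENSMUSG00000030495, chromosome 7, 35186385 to 35204898, plus strand), the Asc-1 exchanger of D-serine and glycine, had 603, 244 and 250.1 normalized counts in WT and 208, 319 and 380 in Sgo1-/+. WT replicate 1 was highest, 2.41 times the median of the other 5. Slc7a10 differed by −0.27 on the log2 scale (SE 0.403), which turned to 0.29 (SE 0.242) with WT replicate 1 left out. Exons of Lrp3 on the opposite strand cover 377 of its 2111 exonic bases, and Lrp3 in WT replicate 1 was 0.984 times the median of the other 5.

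Dao (ENSMUSG00000042096, chromosome 5, 114003703 to 114025449, plus strand), which degrades D-serine, had 309.9, 4.13 and 14.6 estimated counts in the WT libraries, by replicate number, with 2.5, 0 and 5 in the Sgo1-/+ libraries. A single library held nearly all of the signal, and the count of 0 allows up to 3 counts at this depth. It was the one member that did not pass the filter on low counts. In a fit of all genes regardless of that filter, Dao differed by −5.49 on the log2 scale (SE 1.66), or −1.94 (SE 1.03) with WT replicate 1 left out. Per kilobase, Dao and Srr had nearly equal levels in WT replicate 1, 8.76 and 8.63, whereas in the other libraries Dao was at 0 to 0.415 and Srr at 19.6 to 25.6.

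Gldc (ENSMUSG00000024827, chromosome 19, 30098449 to 30175418, minus strand), the decarboxylase of the glycine cleavage system, was the only one of the 10 genes whose groups did not overlap. By replicate number, the WT libraries held 178, 245 and 299 normalized counts of Gldc, and the Sgo1-/+ libraries 327, 357 and 329. All 3 Sgo1-/+ libraries lay above all 3 WT libraries, and groups without overlap, in either direction, were found for 6.85% of the tested genes. Gldc differed by 0.49 on the log2 scale (SE 0.196, unadjusted p = 0.0420 by edgeR's quasi-likelihood test, Benjamini-Hochberg adjusted p = 0.9999). Without WT replicate 1, which was the lowest library, it was 0.31 (SE 0.138) with an unadjusted p of 0.0556 in the same edgeR test. The groups still did not overlap in the remaining 5 libraries, as in 18% of the genes tested there. The olfactory bulb genes differed between the same 5 libraries, and their part in the result was not tested. Neither value passed the adjustment over all genes.

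**Figure D3:**
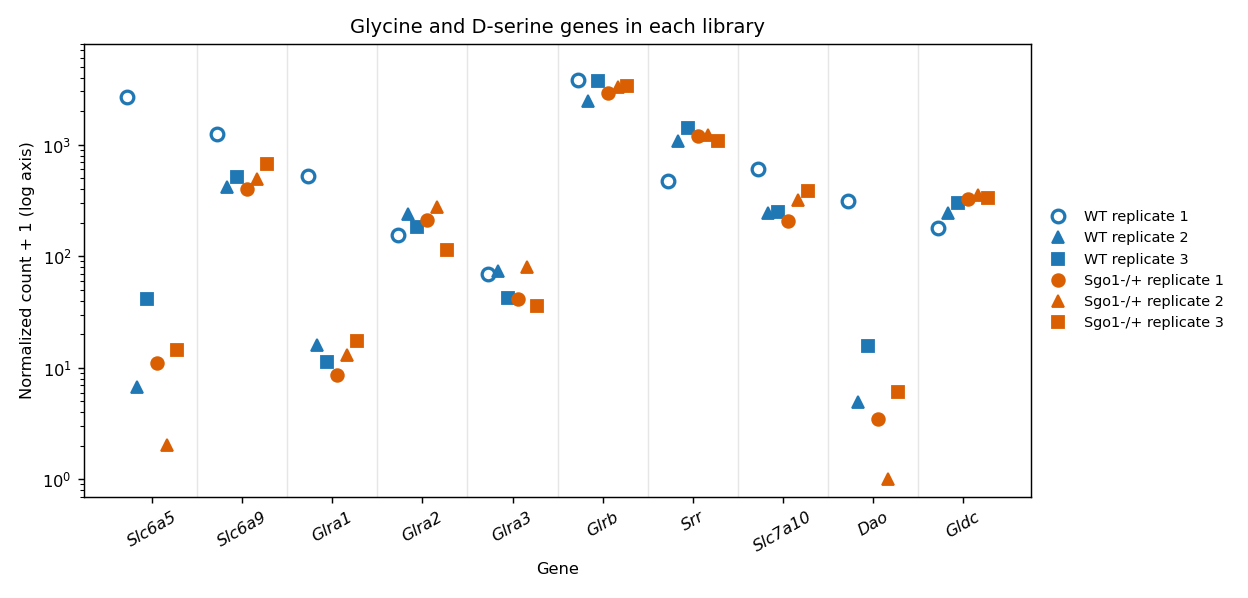
Normalized count plus 1 (log axis) of the 10 genes in each library, WT in blue and Sgo1-/+ in orange, with WT replicate 1 as the open circle. WT replicate 1 lies far above the other libraries for Slc6a5 (2653), Glra1 (525) and Dao (312) and below them for Srr (475) and Gldc (178).

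In edgeR's quasi-likelihood test over 16337 genes, 0% of the genes had an adjusted p-value under 0.05, and 0 of the 8 members added by function did. Before adjustment, 2.04% of the genes were under 0.05 (1.23% lower and 0.808% higher in Sgo1-/+), among them 2 of those 8, Glra1 (lower) and Gldc (higher). With WT replicate 1 left out, the share was 3.77% (1.91% lower and 1.86% higher), none of these 8 members was among them, and 0% of the genes passed the adjustment. WT replicate 1 was at least 4-fold above the median of the other 5 libraries for 1 of these 8 members, Glra1, and for 0.973% of the tested genes. Slc6a5 and Dao were also above that level, but they were chosen by a genotype difference that rests mainly on this library. Dao was not among the tested genes. No member was at least 4-fold below that median, as 2.75% of the tested genes were. Slc6a9 and Slc7a10 joined Glra1 at the level of 2-fold above (4.99% of the tested genes), and Srr was the 1 member at least 2-fold below (8.51%). Among the 8 members added by function, WT replicate 1 was above the highest of the other 5 for 4 (28.1% of the tested genes). It was below the lowest for Srr and Gldc (30.2% of the tested genes). The Hox, brain stem and cerebellar marker sums were high in the same library as Slc6a5, Glra1 and Dao, and their part in these differences was not tested. Fewer cells of a type and less RNA per cell cannot be told apart in bulk tissue.

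**Figure D4:**
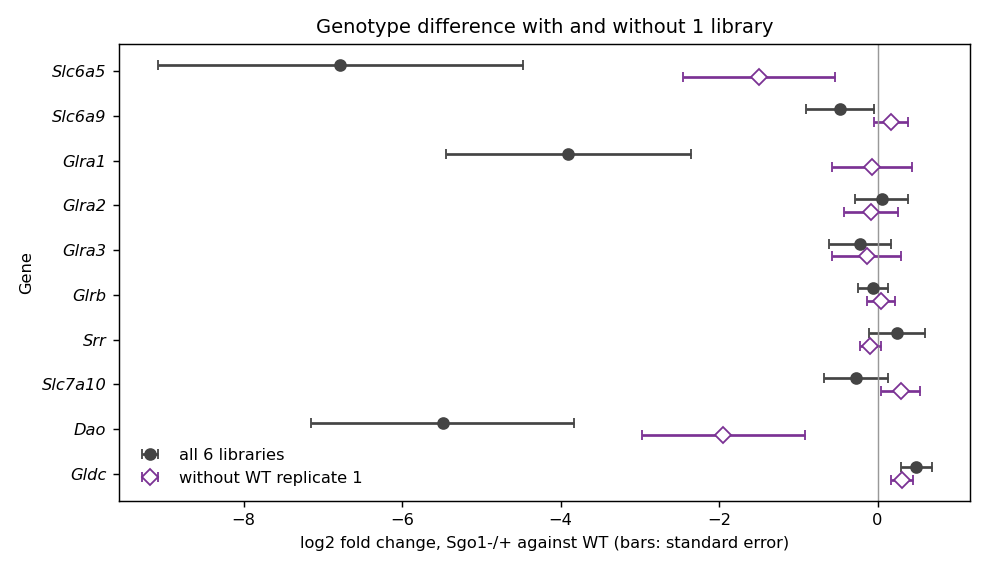
Log2 fold change of Sgo1-/+ against WT with its standard error for the 10 genes, with all 6 libraries (filled circles) and without WT replicate 1 (open diamonds). Slc6a5, Glra1 and Dao move from −6.78, −3.90 and −5.49 to −1.50, −0.07 and −1.94.

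The order of levels per kilobase was taken within Sgo1-/+, where no library stood apart in the cerebral markers. It ran from Glrb (57.0 ± 4.32, SD, n = 3) to Srr (21.3 ± 1.5), Slc7a10 (11.9 ± 3.44), Slc6a9 (8.42 ± 2.22), Glra2 (5.22 ± 2.15) and Gldc (4.59 ± 0.227). Glra3 (0.464 ± 0.218), Glra1 (0.414 ± 0.150), Slc6a5 (0.0930 ± 0.0730) and Dao (0.0711 ± 0.0718) followed far below. The ranges of neighbours overlapped for Slc7a10 and Slc6a9, Slc6a9 and Glra2, Glra2 and Gldc, Glra3 and Glra1, and Slc6a5 and Dao. In WT replicate 1, Glrb (67.9) was followed by Slc6a5 (30.5), Slc7a10 (23.7), Slc6a9 (20.1) and Glra1 (18.0).

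The genes whose profile over the 6 libraries was most like that of Slc6a5 were Pcp2, Cbln3, Ppp1r17, Car8 and the pseudogene Gm2574. Their root mean square differences from Slc6a5, after each profile was centred on its own median on the log2 scale, were 1.43, 1.53, 1.70, 1.79 and 1.85. Pcp2, Ppp1r17 and Car8 are expressed in Purkinje cells and Cbln3 in cerebellar granule cells. Like Slc6a5, Pcp2 and Ppp1r17 are in the study's own gene table, chosen by their expression difference between these same WT and Sgo1-/+ libraries. A gene very high in WT replicate 1 alone comes near to Slc6a5 by this measure, so the ranking is a description with no test. Cbln3 had 4644 normalized counts in WT replicate 1 and 12.2 to 201 in the others.

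The further genes of the pathway were 26, in 6 lists, of which 23 passed the filter. Their median log2 fold change was 0.01, with 12 higher and 11 lower in Sgo1-/+, and 0 passed the adjustment. Over all tested genes the median was −0.00, with 8138 higher and 8199 lower. With WT replicate 1 left out the median was 0.03. Slc1a5, a transporter of neutral amino acids including serine and glutamine, was the only one with an unadjusted p under 0.05 in edgeR's test (log2 difference 0.60, SE 0.251, unadjusted p = 0.0486), beside 2.04% of all tested genes. With WT replicate 1 left out it was no longer under that threshold (0.58, SE 0.305, unadjusted p = 0.0949 by edgeR). It had 34.3, 33.9 and 36.4 normalized counts in WT and 60.9, 57.5 and 41.1 in Sgo1-/+, and with Slc1a4 was 1 of 2 pathway genes whose groups did not overlap, beside 6.85% of all tested genes. The median was 0.06 over the 5 tested of 6 transporters (0.15 with WT replicate 1 left out) and 0.15 over the 3 genes of L-serine synthesis (0.23), all 3 of which were positive in both fits. It was −0.14 over the 5 partners of Gldc and serine hydroxymethyltransferases, of which 0 were positive, and turned to 0.01 with WT replicate 1 left out. That library lay above all others for 4 of the 5, and for 28.1% of all tested genes. Over Ddo and Pick1 it was 0.05, and 0.48 with that library left out.

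The NMDA receptor subunits, whose co-agonist site binds glycine or D-serine, had a median log2 fold change of −0.00 over the 6 tested of 7, and −0.04 with WT replicate 1 left out. Grin2b had 94.8 normalized counts in WT replicate 1 and 891 to 1301 in the other libraries, and Grin2a had 120.4 against 481 to 777. Grin2c, a subunit of cerebellar granule cells and astrocytes, had 1421 against 442 to 595. WT replicate 1 was thus outside the range of the other 5 in opposite directions for Grin2a and Grin2b and for Grin2c.

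Without WT replicate 1, 4 of the 23 tested pathway genes had an unadjusted p under 0.05 in edgeR's test, beside 3.77% of all genes. Phgdh, the first enzyme of L-serine synthesis, differed by 0.40 on the log2 scale (SE 0.0998, unadjusted p = 0.00462 by edgeR). Ddo, the D-aspartate oxidase related to Dao, had 66.02 and 81.2 normalized counts in the remaining WT libraries, and in Sgo1-/+ 156, 111 and 129.9, which is 0.85 higher on the log2 scale (SE 0.233). Grin2a (−0.38, SE 0.159) and Grin2b (−0.31, SE 0.118) were lower in Sgo1-/+. The groups of Grin2a overlapped, with 555.5 and 777 normalized counts in the remaining WT libraries and 481 to 556.4 in Sgo1-/+. The olfactory bulb genes were lower in Sgo1-/+ in the same 5 libraries, with an unadjusted p under 0.05 for 5 of 5, and their part in these 4 differences was not tested. None of these 4 passed the adjustment, and with WT replicate 1 their values were 0.23, −0.01, 0.08 and 0.22.

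**Figure D5:**
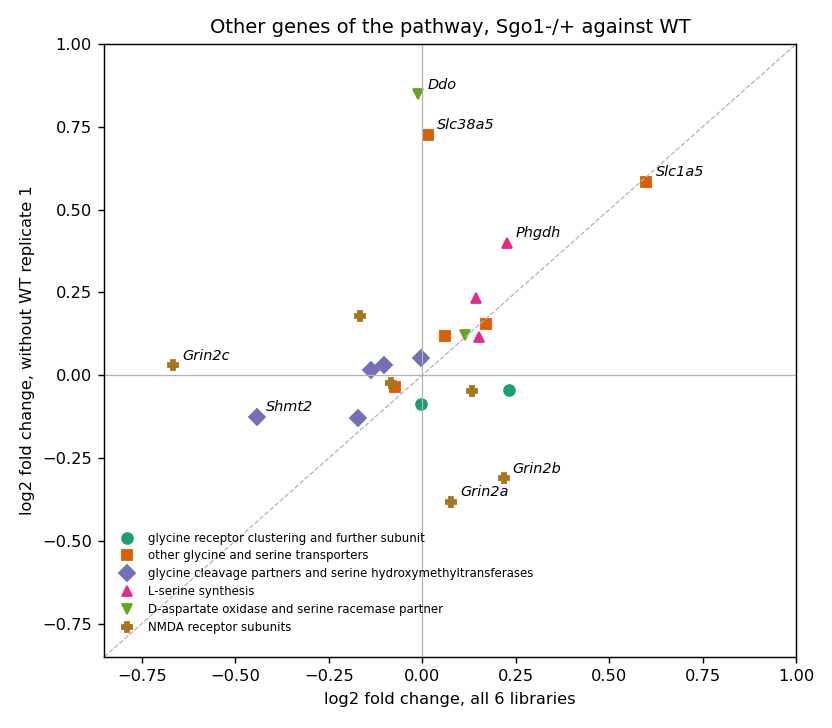
Log2 fold change of Sgo1-/+ against WT for the 23 tested pathway genes, with all 6 libraries (horizontal axis) and without WT replicate 1 (vertical axis), by list. Genes off the dashed line of equal values, such as Ddo (−0.01 and 0.85) and Grin2c (−0.67 and 0.03), moved when that library was left out.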

How the data were processed

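Brain RNA of 3 WT and 3 Sgo1-/+ mice was measured by RNA-seq. The authors aligned paired reads to mm10 in Strand NGS 2.1 and deposited estimated counts per Ensembl gene, without normalization. They also deposited log2 values (DESeq-normalized, minus each gene's median), their log2 fold change, the same as a signed score, and as an unsigned ratio, none of which were used. The submitters' processing notes also list BWA and edgeR. The Ensembl release and the strand setting of the counting are not given in the sources used here. Table columns were tied to samples through the number in each title, with the first 3 brain numbers as WT; the labels do not give brain numbers.

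Estimated counts were rounded and fitted in edgeR 4.0.16 by the quasi-likelihood test (TMM scaling, default filter on low counts, 16337 genes, no covariates, Benjamini-Hochberg adjustment, threshold 0.05). The SE is the log2 fold change divided by the square root of F. The analysis used R 4.3.3. Dao was fitted with the filter off. Exon lengths came from GENCODE on the same build, for 36308 gene IDs. Profiles were compared on log2 of the normalized count plus 0.5. Alternatives were DESeq2 1.42.0, edgeR's likelihood ratio test, limma 3.58.1, other scalings and filters, sex, the replicate block and leaving out each library. The edgeR, DESeq2 and limma tests were tried on simulated counts.

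Members and lists were chosen with earlier results of these data known. Named genes were the members, the pathway and marker lists, Sgo1 and the 5 genes with profiles nearest to Slc6a5. Ccdc24, Tsr1 and Lrp3 were added after their values were seen. Replicates are separate mice.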

Additional observations from a re-analysis of the deposited data

How the results depend on the processing

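None of the 8 members added by function passed the adjusted threshold under any alternative that gave it an adjusted p, the lowest being 0.764, for Glra1 and Gldc in edgeR's test without WT replicate 3. DESeq2 gave no adjusted p for Glra1, and requiring 10 or more counts per library removed Slc6a5, Glra1 and Dao. Over all genes, 3 passed it in DESeq2's Wald test and 2 in the likelihood ratio test, against 0, and leaving out a library gave between 0 and 1 (1 without Sgo1-/+ replicate 2). Genes with an unadjusted p under 0.05 numbered 333, 563 with no filter on low counts, and between 240 and 1040 with a library left out, 626 without WT replicate 1 and 1040 without WT replicate 3. Leaving out WT replicate 1 turned the direction of Slc6a9 (0.17), Glra2 (−0.0804), Glrb (0.0479), Srr (−0.0912) and Slc7a10 (0.29). Glrb also turned without WT replicate 3 (0.03) and Sgo1-/+ replicate 1 (0.00305), and Glra2 in limma (−0.0204), with the replicate block (−0.00951) and without Sgo1-/+ replicate 2 (−0.258). Over the 6 fits that each leave out 1 library, the log2 difference ranged from −0.747 to 0.17 for Slc6a9, −0.258 to 0.335 for Glra2, −0.236 to 0.0479 for Glrb, −0.0912 to 0.586 for Srr and −0.497 to 0.291 for Slc7a10. The cause was not tested. Over all alternatives that gave a value, Glra1 ranged from −4.46 to −0.07 (without WT replicate 1), Glra3 from −0.677 to −0.00710 and Gldc from 0.31 to 0.67. With sex as a covariate, Slc6a5 was at −4.47, Glra1 at −2.14 and Dao at −4.16.

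Deviations of same-numbered WT and Sgo1-/+ libraries from their group means had correlations across genes of −0.146, 0.0140 and −0.207. Those of differently numbered libraries ran from −0.229 to 0.295. The same-numbered values lay within that range, which cannot tell whether the mice were paired. With the replicate block, 0 genes passed the threshold and 280 had an unadjusted p under 0.05. With the longest transcript as gene length, Gldc ranked above Glra2 and Dao above Slc6a5 in Sgo1-/+. Levels of Slc6a5 and Dao outside WT replicate 1 rest on at most 40 counts.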

Other observations

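Within the 5 libraries other than WT replicate 1, WT replicate 3 had the highest normalized counts of both Slc6a5 (40.6) and Dao (14.8). It also had the highest summed level of the Hox genes, 1.55 CPM against 1.25 CPM in WT replicate 2 and 0.462 to 0.514 CPM in the Sgo1-/+ libraries. All but 1 of these Hox genes had at most 3 estimated counts in each of the 5 libraries, so the Hox sums rest on few reads. The granule cell sum had another order, with 126 CPM in WT replicate 2, 69.9 in WT replicate 3 and 119, 46.3 and 124 in Sgo1-/+ replicates 1 to 3. Its genes moved unequally. Of the 5 libraries, WT replicate 2 was highest for Zic1, Zic2 and Cbln1 (900, 220 and 210 normalized counts). Gabra6, Fat2 and Cbln3 had only 3.81, 3.81 and 28.6 there. Like Slc6a5, these were lowest in Sgo1-/+ replicate 2 (0, 0 and 12.2) and next lowest in WT replicate 2. Unlike Slc6a5, they were highest in Sgo1-/+ replicate 3 (72.6, 98.2 and 201). Any link to Slc6a5 was not tested.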
